A study of Bos taurus with 14 samples.

Results

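Aquaporins are membrane channels that let water, and in some members glycerol, cross cell membranes along osmotic or concentration gradients. The aquaglyceroporins AQP3 and AQP7 pass glycerol as well as water. In the mouse blastocyst, aquaporins of the trophectoderm carry the water that follows sodium pumped into the cavity, and in cattle the conceptus later elongates around a fluid-filled lumen. The probe sets described here were all those of the array whose single gene symbol in the platform annotation begins with AQP and a digit. There were 9 such probe sets of 24016, for 6 of 9155 named genes: AQP1 with 3 probe sets, AQP4 with 2, and AQP3, AQP5, AQP7 and AQP11 with 1 each. Of the 12 AQP genes in the RefSeq gene table of cattle (assembly ARS-UCD2.0), the other 6 (AQP2, AQP6, AQP8, AQP9, AQP10 and AQP12) were not analysed here. The family was chosen by the measured difference of AQP3 between long and short conceptuses, which is among the largest on the array, so the values of AQP3 in that comparison are given as a description without a test. The values of the other aquaporins played no part in that choice and were tested.

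RNA of 14 whole Holstein conceptuses, the embryo with its membranes, was measured on 1 Affymetrix bovine array each. Superovulated cows were inseminated with semen of 1 bull, embryos were recovered on Day 6.5 and graded by morphology, and conceptuses were flushed from recipient heifers on Day 15. The groups were 5 long and 5 short conceptuses from Grade 1 embryos, 1 Grade 1 conceptus with no length in the labels, and 3 conceptuses from Grade 3 embryos, which also carry no length. Males numbered 1 of 5 long, 2 of 5 short, 2 of 3 Grade 3 and the conceptus without a length. Embryos were transferred in groups of 2 to 6 per recipient, and which conceptuses shared a dam or a recipient is not given, so p-values describe the spread between these conceptuses taken as independent. For Grade 1 short replicate 1, one label reads long and another short. It was counted as short, which gives the 5 and 5 of the design text.

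Levels are log2 expression values made by the RMA method, so a difference of 1 is a doubling of signal. Array medians lay between 5.62 and 5.72, and the lowest correlation between any pair of arrays was 0.984. Of the 8 trophoblast markers measured, levels ran from mid-array for KRT8 (5.33 to 6.36) and ELF5 (6.20 to 7.19) to the top of the array. IFNT2, the interferon by which the ruminant conceptus announces itself, ranged from 14.37 to 14.61 over all 14 arrays, and KRT18, a keratin of simple epithelia, from 14.40 to 14.54. The dimmest measured genes of the red cell, endothelium and leucocyte lists were HBA at 3.19 to 3.42, TEK at 2.69 to 3.15 and PTPRC at 2.74 to 3.30. Other genes of those lists lay in the middle of the array. At or below the mean level of CD8A were 58.2% of probe sets, at or below PECAM1 46.7% and at or below ALAS2 42.6%. As an index of RNA integrity, the 3′ minus 5′ difference of the GAPDH control probe sets was -0.03 to 0.03 in long, -0.08 to 0.08 in short and -0.07 to 0.11 in Grade 3 conceptuses. That of the actin controls was larger, 1.34 to 1.84 in long, 1.29 to 1.75 in short and 1.48 to 1.60 in Grade 3 conceptuses. The groups overlapped in both.

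AQP3, a water and glycerol channel of basolateral epithelial membranes, was the aquaporin with the widest spread. In the 5 long conceptuses its level was 5.56, 5.23, 5.49, 5.26 and 5.30. In the 5 short conceptuses it was 6.93, 6.80, 6.59, 7.14 and 7.67. All long conceptuses lay below all short ones, with a gap of 1.03 between the highest long and the lowest short value, and the short group covered a range of 1.08 against 0.34 in the long group. In 8.42% of all probe sets the values of the 2 length groups did not overlap, 5.52% with long below short; since the comparison led to AQP3, nothing is read from this. The mean was 5.37 ± 0.15 (SD, n = 5) in long and 7.03 ± 0.41 (SD, n = 5) in short conceptuses, a log2 difference of -1.66 or 3.16-fold lower signal in long ones. Among 13292 probe sets with 1 symbol it was the one with the 4th lowest difference, next to SLC5A5 (-1.71) and FOLR3 (-1.63).

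**Figure D1:**
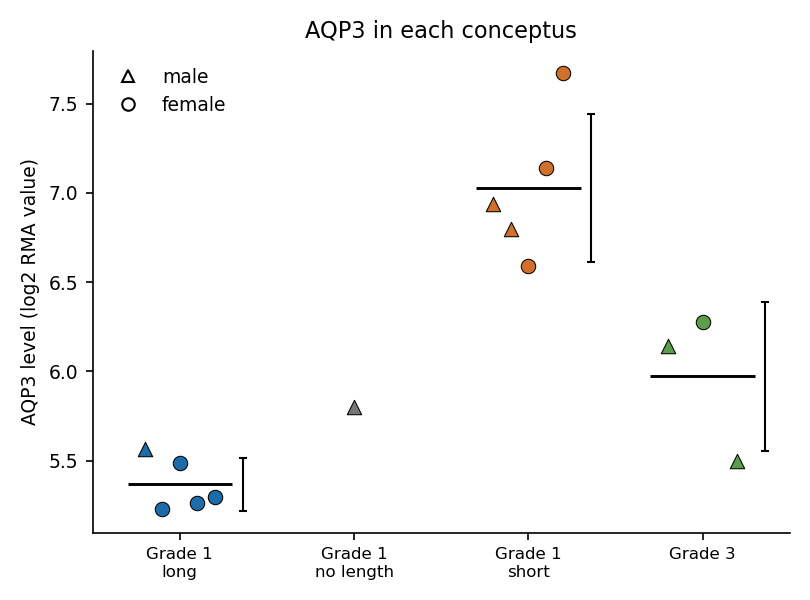
AQP3 level (vertical axis, log2 RMA value) in each of the 14 conceptuses by group; triangles are males, circles females, lines the group mean and bars 1 SD. The 5 long conceptuses lie between 5.23 and 5.56 and the 5 short ones between 6.59 and 7.67, with the conceptus of no recorded length at 5.80 and the Grade 3 conceptuses between 5.50 and 6.28.

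The conceptuses outside the length comparison lay between the long and short ones or beside the long ones. The Grade 1 conceptus with no recorded length had an AQP3 level of 5.80. The 3 Grade 3 conceptuses had 6.14, 6.28 and 5.50, a mean of 5.97 ± 0.42 (SD, n = 3). All 3 Grade 3 values were below every short value, the closest by 0.32, and 1 of them, replicate 3, fell inside the range of the long group. The log2 difference of Grade 3 was 0.60 from long and -1.06 from short conceptuses. Those differences rest on the long and short values that led to AQP3 and were not tested; Grade 3 and short values did not overlap in 6.08% of all probe sets, 3.82% with Grade 3 lower, and Grade 3 and long values in 7.14%, 3.1% with Grade 3 lower.

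Some conceptuses share a title prefix, a number whose meaning the labels do not give. The AQP3 values within prefixes and with conceptuses omitted come from the same arrays that led to AQP3, with a sign fixed by groups that do not overlap, and are given as a description of size. Within the prefix that holds 2 long and 1 short conceptus the long minus short difference was -1.40, and within the one with 1 long and 2 short it was -1.38. Over the 10 conceptuses it was lowest at -1.77 without Grade 1 short replicate 3 and highest at -1.50 without Grade 1 short replicate 5, the conceptus of highest AQP3. With short replicate 1 counted as long, as its other label reads, it was -1.42; its level of 6.93 lay above those of all 5 long conceptuses.

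Cell makeup was not measured, and in RNA of whole conceptuses fewer cells of a type and less RNA per cell cannot be told apart. Over all named genes 3.27% were higher and 6.24% lower in long conceptuses in limma. Of the marker lists, 3 of 6 epiblast genes were measured; their mean level ranged from 5.56 to 5.99 in long and 5.94 to 6.44 in short conceptuses, and 1 of the 3, DNMT3B, passed and was lower in long ones. Of 12 hypoblast genes 10 were measured, with 3 higher and 1 lower in long conceptuses and a mean level of 7.73 to 7.91 against 7.48 to 7.79 in short ones. For trophoblast 8 of 14 genes were measured, 1 higher and 1 lower, at 11.42 to 11.55 in long and 11.26 to 11.53 in short conceptuses. The part of these lists in the AQP3 difference was not tested. Of the remaining lists, mesoderm (3 of 7 measured, none passed) ranged from 6.39 to 7.57 in long and 6.23 to 7.07 in short conceptuses, and blood immune cells (9 of 10, CD8A lower) from 4.57 to 4.84 and 4.75 to 5.04. Endothelium (9 of 10, PECAM1 higher and SOX18 lower) lay at 4.08 to 4.18 and 4.09 to 4.15. Erythroid cells (9 of 12, none passed) lay at 3.94 to 4.03 and 3.92 to 4.10. Endometrial epithelium (7 of 10, none passed) lay at 4.33 to 4.57 and 4.31 to 4.58.

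AQP11, an intracellular member of the family found at the endoplasmic reticulum and needed for kidney tubule cells in the mouse, was on average higher in long conceptuses but did not pass the test. Its level was 8.94, 8.72, 7.58, 8.38 and 8.38 in the long conceptuses. In the short ones it was 8.13, 7.88, 7.50, 7.77 and 7.44. Of the long conceptuses, 4 lay above every short one, and long replicate 3 lay inside the short range. The means were 8.40 ± 0.51 and 7.74 ± 0.28 (SD, n = 5 each), a log2 difference of 0.66 with a 95% interval of 0.17 to 1.14 and adjusted p = 0.106 in limma. Without long replicate 3 the difference was 0.86 and passed (adjusted p = 0.0199), and with sex as a covariate it was 0.76 and passed (adjusted p = 0.0291). Over all alternatives run for this comparison the adjusted p of AQP11 ranged from 0.0199 to 0.224. AQP11 missed the threshold in 9 of 10 fits with single conceptuses omitted and in 6 of 7 other settings. Within the title prefix with 2 long conceptuses the difference was 0.95, and within the one with 1 long conceptus, replicate 3, it was -0.06. The Grade 3 conceptuses had AQP11 levels of 7.74, 7.91 and 7.97, inside the short range, and the conceptus without a length had 7.83.

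AQP7, the glycerol channel of adipose tissue, lies beside AQP3 in the cattle gene order and did not pass. Its level ranged from 5.00 to 5.38 with a median of 5.28 in long and from 4.87 to 5.33 with a median of 5.28 in short conceptuses. The groups overlapped almost fully: the log2 difference was 0.05 with an interval of -0.18 to 0.27 (limma adjusted p = 0.845), so for AQP7 a difference of the size measured for AQP3 lay outside the interval. NOL6, a nucleolar protein gene that flanks AQP3 on the other side, fell by 0.47 on the log2 scale (SE 0.13, limma adjusted p = 0.0486). PAK1, a kinase gene next to AQP11, rose by 1.26 (SE 0.27, limma adjusted p = 0.0228). NOL6 and PAK1 were looked up after their values could be seen. The other measured genes within 2 places of an aquaporin did not pass. These were ADCYAP1R1, GHRHR, CDH2, CHST9, KCTD1, FAIM2 and CHMP5, with limma adjusted p from 0.219 to 0.908. Over all named genes 3.27% were higher and 6.24% lower in long conceptuses. Leaving out 1 conceptus at a time, NOL6 missed the threshold in 8 of 10 fits and PAK1 in 5 of 10. Their adjusted p reached 0.113 and 0.0573, both times when long replicate 2 was omitted. With short replicate 1 counted as long or quantile normalisation repeated, NOL6 also missed the threshold (highest adjusted p = 0.0798).

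The water channels AQP1, AQP4 and AQP5 did not pass for length. AQP1 is the channel of red cells and of many endothelia; its 3 probe sets differed between long and short conceptuses by -0.06, 0.11 and -0.05, with adjusted p-values of 0.691, 0.699 and 0.839 in limma. Over the 14 arrays they ranged from 3.25 to 3.95, 3.71 to 4.45 and 4.20 to 4.73. AQP4, the channel of astrocyte end-feet, differed by -0.02 and 0.01 in its 2 probe sets (adjusted p = 0.931 and 0.964), with levels of 3.56 to 4.20 and 2.81 to 3.15. AQP5, an apical channel of glands and airway, differed by -0.07 (adjusted p = 0.742) and ranged from 2.92 to 3.45. The first AQP1 probe set, both of AQP4 and that of AQP5 were dim, with at most 22.9% of all probe sets at or below their mean level, and the files used here give no detection call for them.

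**Figure D2:**
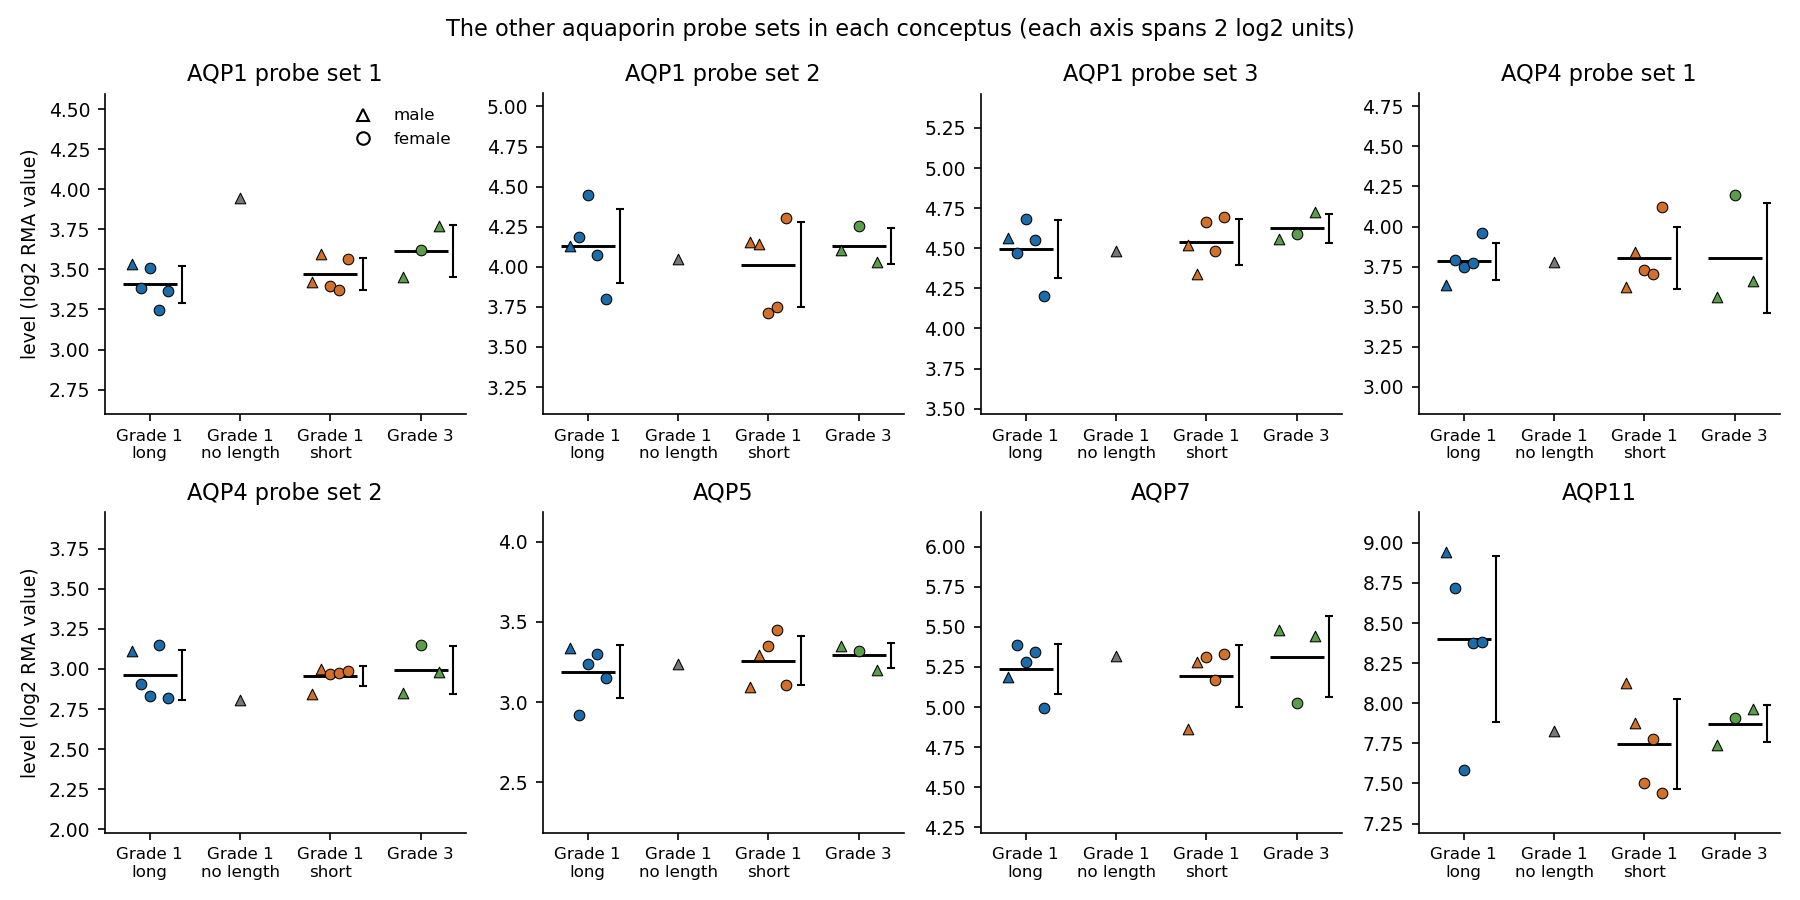
Levels (vertical axes, log2 RMA value, each spanning 2 units) of the other 8 aquaporin probe sets in each conceptus by group; triangles are males, circles females, lines the mean and bars 1 SD. AQP11 reaches 8.94 in a long conceptus against at most 8.13 in short ones, with long replicate 3 at 7.58, inside the short range. The long and short groups overlap in all 8 probe sets.

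Across the family, 0 of the 8 tested probe sets passed between long and short conceptuses in limma. Of all 24016 probe sets 6.57% passed. An unadjusted p under 0.05 was found for 1 of the 8, AQP11, and for 5274 of all 24016 probe sets. The 8 differences had a median of -0.01, against -0.02 for all probe sets, with 4 above and 4 below 0. The 95% intervals reached 0.16 to 0.49 to each side. None of the 8 reached a difference as large as that measured for AQP3, a gene chosen for its large difference.

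Leaving AQP3 aside, no aquaporin probe set passed between grades in limma, where 0% of all probe sets passed. None had an unadjusted p under 0.05, beside 1215 of all 24016 probe sets that did. The mean level of AQP3 was 5.97 ± 0.42 (SD) over 3 Grade 3 conceptuses and 6.16 ± 0.88 (SD) over 11 of Grade 1. The difference was -0.19 with an interval of -1.20 to 0.82. Grade 1 here holds the long and the short conceptuses, whose distance in AQP3 led to the choice of this gene. That distance widens the interval and would raise a p-value, so the grade difference of AQP3 is given without a test. Without the 5 long conceptuses the difference was -0.85, which rests mostly on the short values that led to AQP3 and is given without a test. AQP11 was 7.87 ± 0.12 in Grade 3 and 8.05 ± 0.50 in Grade 1, a difference of -0.18 with an interval of -0.75 to 0.39. The other 7 probe sets differed by 0.01 to 0.13, all above 0 and none past the threshold.

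Set against the length groups apart, Grade 3 gave no call either: 0 of the 8 tested probe sets passed against long conceptuses and 0 of 8 against short ones in limma, where 0% of all probe sets passed in each. Against long conceptuses 2176 of all 24016 probe sets had an unadjusted p under 0.05, and so did 2 of the 8. These were AQP11 at -0.53 (adjusted p = 0.543) and the first AQP1 probe set at 0.21 (adjusted p = 0.54), whose values were 3.45, 3.62 and 3.77 in Grade 3 and 3.25 to 3.53 in long conceptuses. Against short conceptuses 0 of 8 had an unadjusted p under 0.05, beside 2551 of all 24016 probe sets that did. AQP11 differed from short conceptuses by 0.13 with an interval of -0.39 to 0.64. Both comparisons use the same 3 Grade 3 conceptuses.

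Sex did not separate the aquaporins beyond their spread. With grade and length groups as covariates, 0 of 9 probe sets passed between 6 males and 8 females in limma. Of all probe sets 0.458% passed. An unadjusted p under 0.05 was found for 1 of 9 aquaporin probe sets and for 3017 of all 24016. AQP3 differed by -0.16 (male minus female) with an interval of -0.55 to 0.23, and by 0.25 with short replicate 1 counted as long. The 1 probe set with such a p was the first of AQP4, at -0.26 (adjusted p = 0.311), and the second AQP4 probe set stood at -0.03. AQP11 differed by 0.38, with an interval of -0.003 to 0.77 (adjusted p = 0.404).

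**Figure D3:**
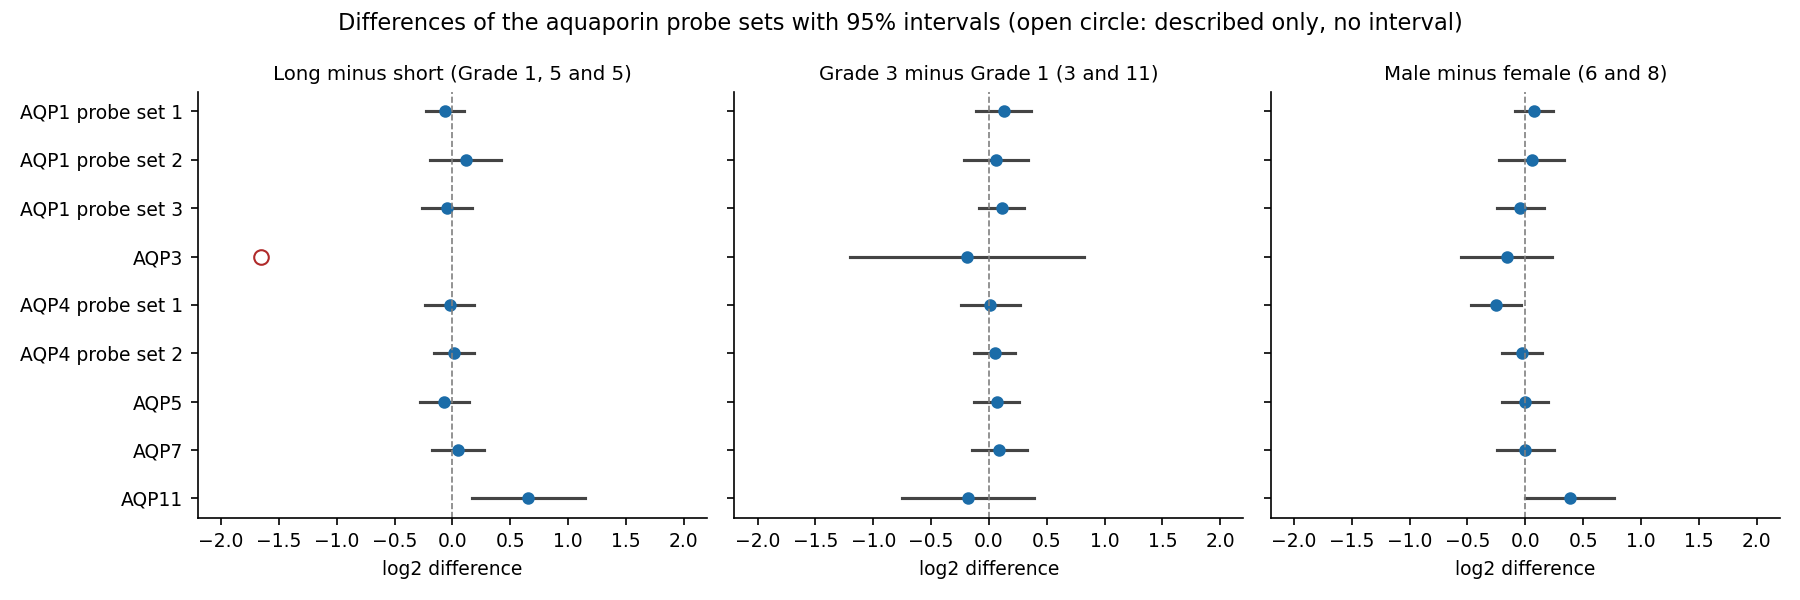
Log2 differences (horizontal axes) of the 9 aquaporin probe sets for length, grade and sex; points are estimates, lines 95% intervals, and the open circle is the AQP3 difference that led to the family, shown without an interval. AQP3 stands at -1.66 for length. For grade its interval runs from -1.20 to 0.82, widened by the long and short values of Grade 1 that led to AQP3.

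Genes of the processes that aquaporins serve were taken as 4 lists, each gene by its brightest probe set. Over all 9155 named genes, 3.27% were higher and 6.24% lower in long conceptuses in limma. In glycerol and triglyceride handling, 3 of 18 measured genes rose and 0 fell, with a median difference of 0.09 against -0.03 over all genes. ABHD5, the coactivator of the triglyceride lipase PNPLA2, had levels of 7.98, 7.62, 7.81, 7.65 and 7.24 in long and 7.16, 7.08, 6.82, 6.66 and 6.39 in short conceptuses. Every long value was above every short one, as also in AGPAT1 and GPAM. The length groups did not overlap in 8.42% of all probe sets, 5.52% with long below short and only the rest with long above short. ABHD5 rose by 0.84 ± 0.16 (SE, limma adjusted p = 0.0178). AGPAT1, which acylates lysophosphatidic acid, rose by 0.59 ± 0.13 (adjusted p = 0.0263), and GPAM, which makes the first acylation of glycerol 3-phosphate, by 0.56 ± 0.15 (adjusted p = 0.0441). Omitting single conceptuses, ABHD5 passed in 10 of 10 fits, while AGPAT1 missed the threshold in 4 and GPAM in 8, with adjusted p = 0.0659 and 0.102 without long replicate 2. With short replicate 1 counted as long, AGPAT1 and GPAM had adjusted p = 0.256 and 0.0995. The count of genes that rose was 1 without long replicates 1, 2 or 5 or short replicate 5.

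In the list of the sodium pump and epithelial ion transport, which sets up the gradients that water follows, 1 of 20 measured genes rose and 1 fell, with a median of -0.02. The chloride channel CLCN2 rose by 0.72 ± 0.18 (SE, limma adjusted p = 0.0397), and the apical sodium-proton exchanger SLC9A3 fell by 0.40 ± 0.10 (adjusted p = 0.0347). SLC9A3 has 3 probe sets, and the other two stood at 0.10 and 0.11 without passing. Omitting single conceptuses, CLCN2 missed the threshold in 7 and SLC9A3 in 8 of 10 fits. The adjusted p of CLCN2 reached 0.0982 (long replicate 2 omitted) and that of SLC9A3 0.0819 (short replicate 4 omitted). SLC9A3 also lost it with short replicate 1 counted as long (adjusted p = 0.126).

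Of 15 measured genes of vasopressin and cyclic AMP signalling, which moves some aquaporins to the cell surface in kidney, 0 rose and 1 fell, with a median of -0.01. PRKACB, a catalytic subunit of protein kinase A, fell by 0.55 ± 0.11 (SE, limma adjusted p = 0.0171). Its levels were 4.71, 4.41, 5.05, 4.80 and 4.79 in long and 5.18, 5.27, 5.30, 5.33 and 5.46 in short conceptuses. These did not overlap, nor did the length groups in CLCN2, SLC9A3 and 8.42% of all probe sets. A second PRKACB probe set stood at -0.000485 and did not pass, and with short replicate 1 counted as long the first had adjusted p = 0.0575. Of 7 measured genes of osmotic and cell volume regulation 0 passed, with a median of 0.06. Of these 7, LRRC8E, a subunit of the volume-regulated anion channel, had the smallest p, at 0.30 ± 0.16 (SE, adjusted p = 0.297). No gene of the 4 lists passed in limma for grade, for Grade 3 against long or short conceptuses, or for sex. Of all probe sets 0% passed in each of those grade comparisons and 0.458% for sex, so nothing is read from this.

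**Figure D4:**
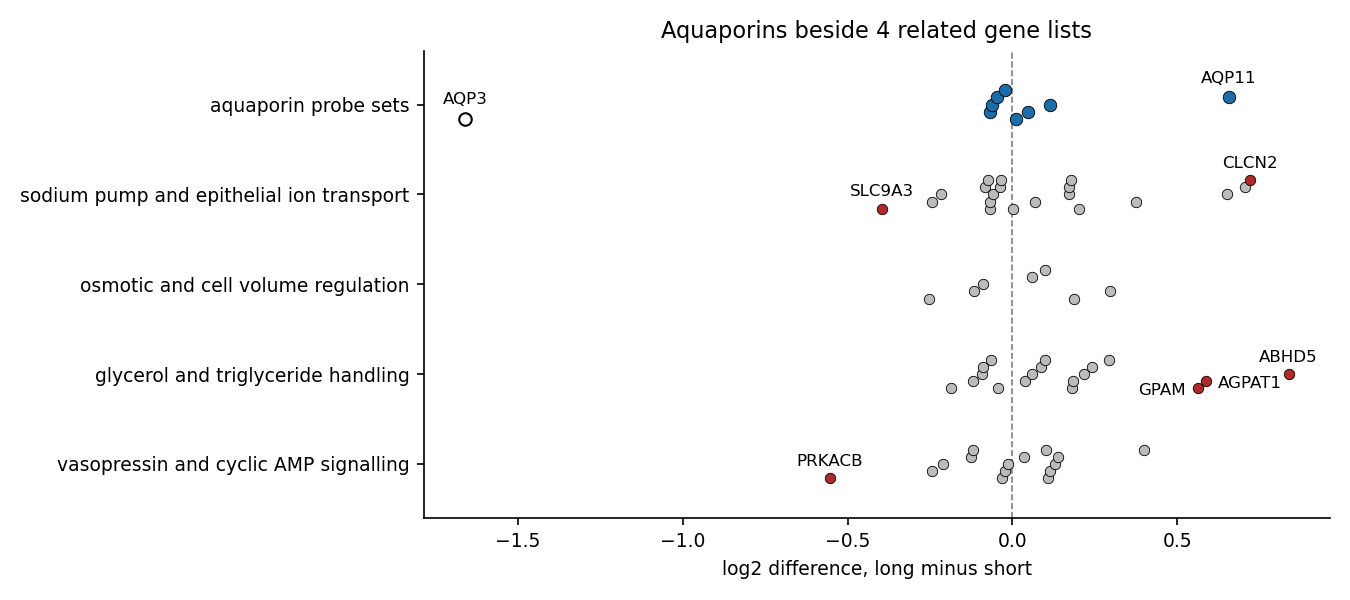
Log2 differences, long minus short (horizontal axis), of the 9 aquaporin probe sets and of the measured genes of 4 related lists; red points passed the test, blue points are the tested aquaporins, grey ones are list genes that did not pass, and the open circle is AQP3. The list genes range from -0.55 to 0.84. AQP3, at -1.66, was chosen for its large difference, so its place apart from them was set in advance.

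Likeness to AQP3 was measured as Pearson's r between log2 levels over the 14 arrays, across 9154 other named genes, and is a description in which the difference between long and short conceptuses is a shared part of every value. The genes of highest r were WRAP53, a Cajal body and telomerase factor (0.96), the RNA-binding protein gene TIAL1 (0.95), the mitochondrial ribosomal protein gene MRPS9 (0.95), C1QBP, a mitochondrial matrix protein gene (0.94), and the adenylate kinase gene AK1 (0.94). The genes of lowest r were the polarity scaffold PALS1 (-0.95), the monoacylglycerol acyltransferase MOGAT1 (-0.94), the apolipoprotein APOA1 (-0.94), the phospholipid synthesis gene CDS2 (-0.94) and the ligand BMP2 (-0.94). Their changes in long conceptuses differed in size: AK1 stood at -0.99 and BMP2 at 2.13, but TIAL1 at -0.21. With each array left out in turn, the value nearest 0 among these 10 genes was that of BMP2, at -0.91.

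Within groups, after each group's mean was subtracted, the likeness was computed over 13 arrays. The genes of highest r were NABP2, a single-stranded DNA binding protein gene (0.98), MRPL45 (0.95), WRAP53 (0.93), the SUMO-activating enzyme subunit SAE1 (0.895) and the kinase CDK12 (0.895). Those of lowest r were MOGAT1 (-0.94), the sterol regulator SREBF2 (-0.93), LHPP (-0.93), EFR3A (-0.91) and the MYC antagonist MXI1 (-0.90). WRAP53 and MOGAT1 were among the named genes by both measures, which share arrays. By Spearman's rho, a correlation of ranks, WRAP53 stood 153rd highest over 14 arrays and 29th within groups. MOGAT1 stood 42nd and 2nd lowest. AK1 was 64th over 14 arrays and SAE1 95th within groups. The other named genes stood within the first 16 over 14 arrays and the first 13 within groups. Among the aquaporins themselves the largest r with AQP3 over 14 arrays was that of AQP11, at -0.60, and for the other 7 probe sets it lay between -0.20 and 0.22. Within groups the order differed: the second AQP1 probe set stood at 0.50, the first AQP4 probe set at 0.48 and AQP11 at -0.19. Short replicate 5, the conceptus of highest AQP3, also had the highest short value of those AQP1 and AQP4 probe sets, 4.30 and 4.12. The likeness of the aquaporins was not recomputed with arrays left out, so their order is not read further.

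**Figure D5:**
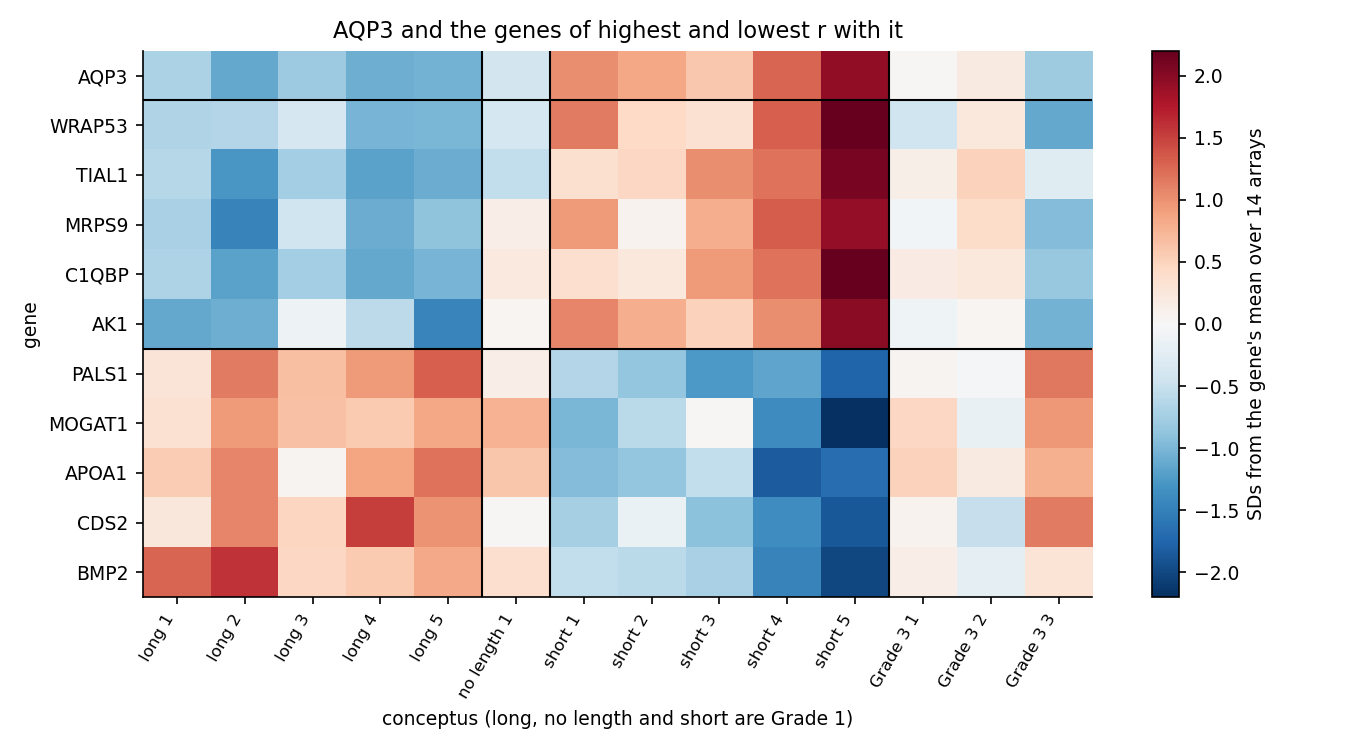
AQP3 and the 5 genes of highest and 5 of lowest r with it (rows) in each conceptus (columns, by group); colour is the number of SDs from the gene's mean over the 14 arrays. Short replicate 5, the conceptus with the highest AQP3 level at 7.67, has the strongest colour in most rows, and Grade 3 replicate 3, at 5.50, resembles the long conceptuses in most rows.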

How the data were processed

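The 14 conceptuses were each measured on 1 array. The deposited values are on a log2 scale, 1 per probe set; the submitters' processing notes name RMA and Affymetrix Expression Console. No version is stated, nor whether all arrays entered 1 RMA run. RMA subtracts background and equalises the distributions of arrays, which compresses differences of dim probe sets. Each array received label made from 250 ng of RNA, per the labels. Precision is limited by the number of arrays.

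The 112 control probe sets were left out. Symbols came from the platform annotation. limma 3.58.1 (lmFit, eBayes; R 4.3.3) was fitted to all 24016 probe sets with two-sided tests, Benjamini-Hochberg adjustment and a threshold of 0.05, and was tested on simulated data. Length used the 10 Grade 1 conceptuses with a length, grade all 14, Grade 3 against long or short and sex a fit with the 4 groups. The design text gives 4 Grade 1 conceptuses for grade without naming them, so all 11 were used.

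The members, lists and tests were chosen with earlier results of these data known. Named were every AQP probe set, the genes most and least like AQP3, and in each list up to 4 genes that passed, or otherwise the one of smallest p. No sequences are shown because none were among the reference tables used here.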

Additional observations from a re-analysis of the deposited data

Results flagged for a closer look

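The highest and lowest conceptus of the long and of the short group were compared with their nearest neighbour by Dixon's criterion for each aquaporin probe set, 18 groups in all, of which chance marks about 1 in 20. In 1 group a conceptus stood apart: the second AQP4 probe set was 2.84 in Grade 1 short replicate 1, below the nearest short value of 2.97, a gap of 0.79 of the group's range. The level is among the lowest on the array, and the other AQP4 probe set was 3.62 in that conceptus, next to 3.70 in short replicate 4.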

How the results depend on the processing

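The log2 difference of AQP3 between long and short conceptuses ranged from -1.77 to -1.50 with single conceptuses omitted and from -1.68 to -1.42 in the other settings; its sign is fixed by the choice of AQP3. The number of aquaporin probe sets that passed for length was 0 to 1 with single conceptuses omitted and 1 with sex as a covariate. The probe set was that of AQP11 each time. For sex 0 passed throughout, as for grade with AQP3 left aside. The number of all probe sets that passed moved more. For length (1577) it was 460 to 1697 with single conceptuses omitted, 492 with short replicate 1 counted as long and 2403 with sex as a covariate. For grade (0) it was 0 to 2, and 1 without the 5 long conceptuses. For Grade 3 against long (0) it was 0 to 1, and 49 with sex as a covariate; against short (0) it was 0 to 4. For sex (110) it was 50 to 224, and 67 with short replicate 1 counted as long. The causes were not tested. No paired analysis was run: the labels give no replicate numbers shared between groups, and 2 of 7 title prefixes held both long and short conceptuses. Title prefixes, shared by some conceptuses, were fitted as a random block instead (estimated correlation 0.138 for length): 1653 probe sets passed for length, 107 for sex and 0 for each grade comparison, with 0 aquaporins in any. The first AQP1 probe set, both of AQP4 and that of AQP5 are dim, which limits what could be seen of them.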

Other observations

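The Grade 1 conceptus with no recorded length had the highest value of the first AQP1 probe set on any of the 14 arrays, 3.95, against at most 3.77 in Grade 3 and 3.60 in long and short conceptuses; its other AQP1 probe sets, at 4.05 and 4.48, lay within the range of the remaining arrays. MIP, the lens member of the family also called AQP0, is not matched by the symbol rule; its level was 4.27 in long and 4.22 in short conceptuses, a log2 difference of 0.05 ± 0.11 (SE, limma adjusted p = 0.842).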
